A study of Mus musculus and Homo sapiens with 4 samples.

Results

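The genes described here are ATF4, DDIT3, PPP1R15A and PPP1R15B, which encode regulators of the integrated stress response and carry short reading frames in their 5' leaders. They were found by Ensembl transcript identifier: 6 human transcripts of 4 genes and 2 mouse transcripts of 2 genes, so 8 of the 288251 transcripts listed for both species. Every one of the 8 was present. Human ATF4 has 3 of them (ENST00000337304, ENST00000396680 and ENST00000404241), DDIT3 has ENST00000346473, PPP1R15A has ENST00000200453 and PPP1R15B has ENST00000367188; mouse Atf4 is ENSMUST00000109605 and mouse Ddit3 is ENSMUST00000026475. The pairing of these identifiers with genes was given with the selection and could not be checked in the name tables used here, which hold none of the 93380 mouse or 194871 human identifiers.

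Ribosome footprints, the stretches of RNA that ribosomes shield from RNase I, were counted in 4 libraries that form 2 pairs. E14 mouse embryonic stem (ES) cells, of 129/Ola background, feeder-free and grown with LIF, were exposed for 60 s to emetine (dose not in the labels) or for 60 s to cycloheximide at 100 µg/ml. Both drugs stall ribosomes during elongation. HEK cells, a human embryonic kidney line kept in DMEM with 10% serum, gave a bound library, made from 80S ribosomes pulled down with streptavidin by a tagged large-subunit protein, and an input library without that step. The labels name no elongation inhibitor for the HEK cells. Each group is 1 library, so no p-value is given for any comparison, and intervals cover counting error only; PCR copies are not independent molecules, which makes them too narrow. Per library, 78702902 (emetine), 163107357 (cycloheximide), 15411358 (bound) and 7631840 (input) counts fell in coding regions, with overlapping isoforms counted more than once. Cell identity was not checked against markers, because transcripts other than the 8 could not be paired with genes. Changes in coding reads can come from the amount of mRNA or from the ribosomes on it, and in bulk cultures fewer expressing cells and less RNA per cell cannot be told apart either.

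In the integrated stress response, kinases phosphorylate the initiation factor eIF2 and general translation falls, while some mRNAs with upstream reading frames are translated more. In unstressed cells ribosomes initiate at those upstream frames and largely fail to reach the main coding region; when active eIF2 is scarce, more of them pass to the main start. ATF4 is the transcription factor at the centre of the response, DDIT3 (also called CHOP) is a transcription factor linked to cell death under endoplasmic reticulum stress, PPP1R15A (GADD34) is the inducible subunit that directs protein phosphatase 1 to eIF2, and PPP1R15B (CReP) is its constitutive counterpart. The last upstream frame of ATF4 runs into the start of the main coding region in another frame, so some reads counted as coding may belong to it. The files give no positions, so reads of a leader could not be assigned to a frame within it.

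The start of the mouse Ddit3 leader is shown because an upstream frame needs a start codon there. The RefSeq promoter table (GRCm38.p6) reaches 50 bases past the annotated start of the gene. Of these, chr10:127290813-127290842 on the + strand holds 30 bases, printed with each ATG in capitals.
Mouse Ddit3: acacgtcgattatatcATGttgaagATGag
The first ATG begins at base 37, counting the annotated start as base 1, and the last begins at base 46. The 50-base window of mouse Atf4, chr15:80255184-80255233 on the + strand, holds 0 ATG, which says only that these letters are not in this window. ATG on the transcript strand occurred in 14561 of 32851 such windows (44.3%), so its presence is common. The windows are genomic and may include intron, and the start of the counted Ensembl transcript may differ.

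By count, ATF4 and DDIT3 had more reads in the leader than in the coding region in all 4 libraries, whereas in the median transcript leader reads were a few percent of coding reads or fewer. The measure is leader reads divided by coding reads of the same transcript. It is not per base, since lengths were not used here, so a long leader or a short coding region raises it. Its median over transcripts with at least 100 coding reads was 0.0289 with emetine (22255 transcripts), 0.0240 with cycloheximide (23661), 0.00542 in the bound library (19009) and 0.00629 in the input (12824). Leader reads exceeded coding reads in 1.71%, 1.39%, 0.374% and 0.273% of these transcripts, in the same order.

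Mouse Atf4 had 1911 leader and 578 coding reads with emetine, and 1787 leader and 757 coding reads with cycloheximide. That is 3.31 leader reads per coding read with emetine (exact Clopper-Pearson 95% counting interval 3.01 to 3.63), against 2.36 with cycloheximide (2.17 to 2.57). Both libraries thus placed most Atf4 footprints before the coding region, and the intervals do not overlap. Atf4 ranked 42nd of the 22255 transcripts with emetine and 80th of the 23661 with cycloheximide. By number of leader reads alone it was 278th and 486th of 38526 mouse leaders.

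Mouse Ddit3 was covered by far fewer reads. Its leader had 70 reads with emetine and its coding region 58; with cycloheximide the leader had 124 and the coding region 82. The leader reads per coding read were 1.21 with emetine (interval 0.840 to 1.74) and 1.51 with cycloheximide (1.13 to 2.02), so the value with emetine cannot be told from 1 at this depth. With fewer than 100 coding reads Ddit3 was not ranked; 282 ranked transcripts lay above its value with emetine and 162 with cycloheximide. With a minimum of 30 coding reads, which admits it, 455 of 25445 transcripts with emetine and 275 of 26525 with cycloheximide were higher. Within each mouse library the Ddit3 value lay below that of Atf4, and their intervals did not overlap.

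Human ATF4 was near parity. ENST00000337304 had 981 leader and 942 coding reads in the bound library, and 596 leader and 552 coding reads in the input. The leader reads per coding read were 1.04 in the bound library (interval 0.951 to 1.14) and 1.08 in the input (0.960 to 1.21), and both intervals include 1. The 2 further ATF4 transcripts have the same coding counts and differ from it by at most 10 leader reads, so the 3 are not separate measurements; their values were 1.05 for both in the bound library and 1.09 for both in the input. The 3 transcripts held ranks 64 to 66 of 19009 in the bound library and 29 to 32 of 12824 in the input. As plain numbers of leader reads they were 31st to 33rd and 24th to 26th of 65165 human leaders.

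DDIT3 gave the highest ratio in HEK cells on the fewest coding reads. It had 39 leader and 11 coding reads in the bound library, and 32 leader and 10 coding reads in the input. This gave 3.55 leader reads per coding read in the bound library (interval 1.78 to 7.68) and 3.20 in the input (1.53 to 7.30). The gene is under both minimums (100 and 30 coding reads) and has no rank; 11 of the 19009 ranked transcripts lay above its bound value and 6 of the 12824 above its input value.

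The phosphatase subunits had mostly coding reads. PPP1R15B had 137 leader and 402 coding reads in the bound library, and 58 leader and 195 coding reads in the input. Its leader reads per coding read were 0.341 in the bound library (interval 0.279 to 0.415) and 0.297 in the input (0.218 to 0.401). These values put it 353rd of 19009 and 274th of 12824, far above the median transcript although its leader held fewer reads than its coding region.

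PPP1R15A had 8 leader and 77 coding reads in the bound library, and 7 leader and 55 coding reads in the input. The ratios were 0.104 in the bound library (interval 0.0433 to 0.215) and 0.127 in the input (0.0489 to 0.280). It was not ranked at 100 coding reads. With a minimum of 30 coding reads, 4182 of 30012 transcripts in the bound library and 2857 of 25079 in the input were higher. Its ratio lay below those of the other genes described here, but in the input its interval overlapped that of PPP1R15B.

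In both HEK libraries the order from high to low was DDIT3, ATF4, PPP1R15B, PPP1R15A. In the bound library no interval overlapped that of a neighbour. In the input PPP1R15A and PPP1R15B overlapped and the other neighbours did not. Mouse Atf4 stood above mouse Ddit3 while human DDIT3 stood above human ATF4, but the species also differ in drug, preparation and annotation, and this difference was not tested.

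**Figure D1:**
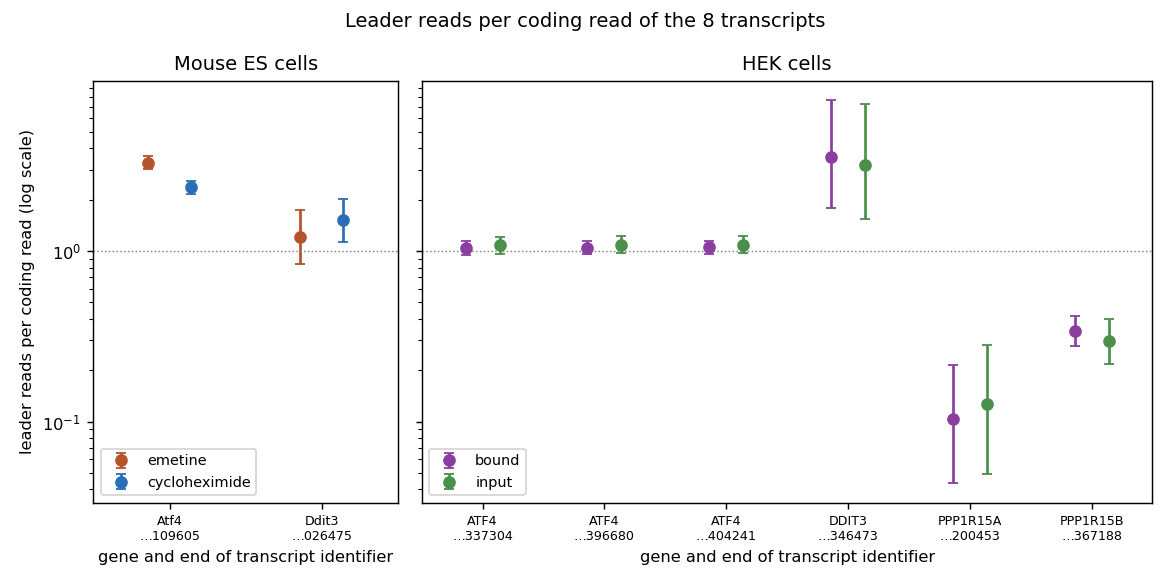
Leader reads per coding read (log axis) of the 8 transcripts in each library; points are the ratio and bars the exact 95% counting interval, with 1 library per point. Atf4 with emetine (3.31) lies above Atf4 with cycloheximide (2.36), while bound and input intervals overlap for every human transcript.

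**Figure D2:**
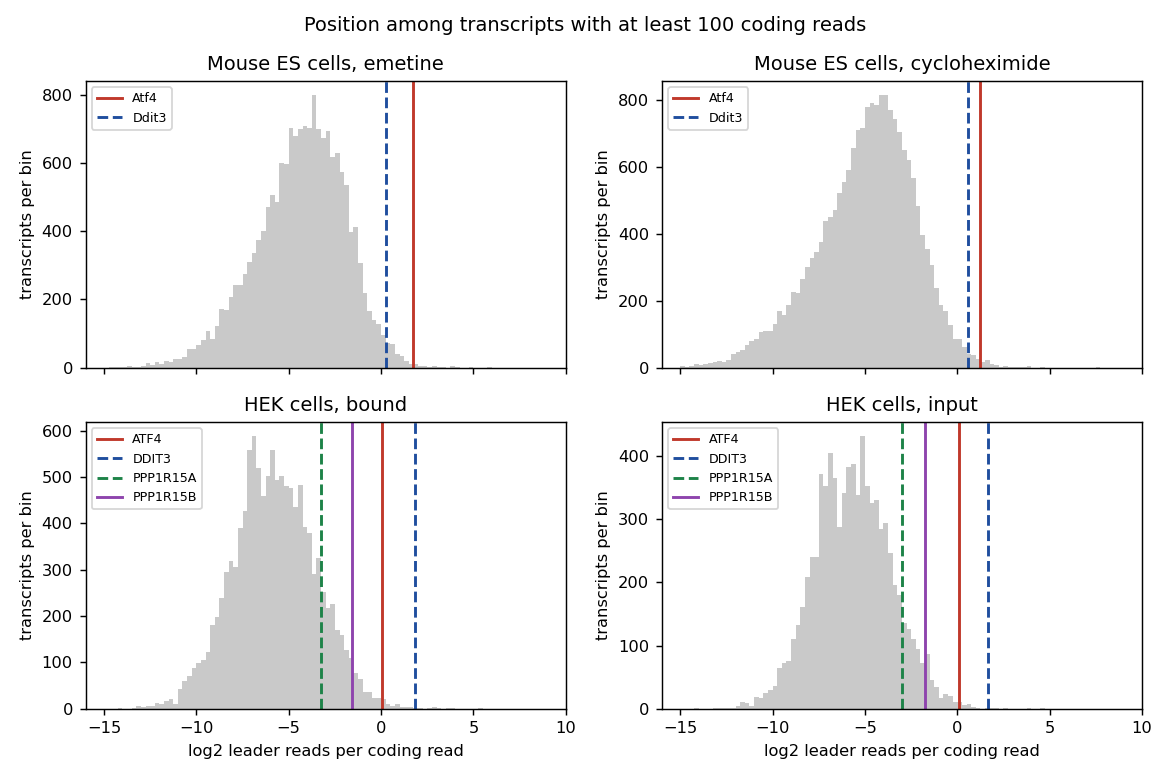
Number of transcripts (y axis) by log2 leader reads per coding read (x axis) among those with at least 100 coding reads and 1 leader read, in each of the 4 libraries; vertical lines mark the genes, dashed where the gene had under 100 coding reads, and ATF4 is ENST00000337304. ATF4, Atf4, DDIT3 and Ddit3 lie in the right tail in the panels of their species, and PPP1R15A lies nearest to the bulk.

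How the genes moved with the inhibitor was measured as log2 of emetine over cycloheximide, scaled so that the median coding region is 0. For Atf4 both parts were higher with emetine, and the leader more so. The coding region, with 578 reads against 757, had a log2 ratio of 0.42 (interval 0.27 to 0.58), or 1.34-fold higher after scaling for depth. The leader, with 1911 reads against 1787, had a log2 ratio of 0.91 (0.82 to 1.004), or 1.88-fold higher. Scaling to the total counts of the 3 parts (coding region, leader and trailer) raises every mouse ratio by 0.20. The Atf4 leader then had a log2 ratio of 1.11, past 2-fold, and its coding region 0.63.

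Measured against its own coding region, where the depth scaling cancels, the Atf4 leader was 1.40-fold higher with emetine (log2 difference 0.49, interval 0.30 to 0.67). Over 10499 mouse transcripts with at least 100 summed reads in both parts the median difference was 0.39, with quartiles at -0.09 and 0.87, and 55.2% of them lay below Atf4. Relative to its own coding region, the Atf4 leader thus lay near the middle of the mouse transcripts. Each part by itself lay higher: the leader ratio of 0.91 was above that of 82.1% of 10677 leaders, whose median was 0.39, and the coding ratio was above that of 84.6% of 28604 coding regions.

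For Ddit3 no difference in the leader or coding ratio was detectable at its depth. The coding log2 ratio was 0.31 (interval -0.20 to 0.82), on 58 reads with emetine and 82 with cycloheximide. The leader, on 70 and 124 reads, had a log2 ratio of -0.01 (-0.46 to 0.42). Its leader against its own coding region gave -0.32 (-1.003 to 0.35), a value with 15.5% of mouse transcripts below it. The interval includes 0, and its upper bound lies just under the median of 0.39 over all transcripts.

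Neither of the 2 mouse genes had a leader 2-fold different from its own coding region, against 22.6% of all transcripts compared. Neither leader was 2-fold different by itself, against 16.4% of 10677 leaders, and neither coding region was, against 2.65% of coding regions. With 2 members, nothing particular to them can be read from these counts.

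Capture of the tagged ribosomes did not detectably move the balance of leader and coding reads of ATF4. The ATF4 coding region had a log2 ratio of bound over input of -0.22 (interval -0.37 to -0.07), on 942 bound and 552 input reads at a depth 1.99-fold greater in the bound library. The leader of ENST00000337304, on 981 and 596 reads, had -0.27 (-0.42 to -0.12). The bound-over-input ratios of the ATF4 leader and coding region were thus below that of the median coding region, by factors of 0.828 and 0.858. The median leader, over 1049 human leaders, had a log2 ratio of -0.14. Of these leaders 36.9% lay below that of ENST00000337304, and 21.9% of 26492 coding regions lay below its coding ratio. The leader against its own coding region gave -0.05 (-0.27 to 0.16), and the other ATF4 transcripts gave -0.06 and -0.05. Over the 930 human transcripts that had 100 or more summed reads in each part the median difference was -0.21, and 63.7% lay below ENST00000337304.

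PPP1R15B did not move beyond counting error with capture. Its coding log2 ratio was 0.05 (interval -0.20 to 0.31) and its leader log2 ratio 0.25 (-0.20 to 0.72). Leader against coding gave 0.20 (-0.33 to 0.73), with 82.7% of human transcripts below it.

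DDIT3 and PPP1R15A were too shallow for the comparison of parts. The DDIT3 leader had a log2 ratio of -0.70 (interval -1.42 to 0.02) and its coding region -0.81 (-2.23 to 0.54), on 11 bound and 10 input reads. Its leader against its coding region gave 0.12, with an interval from -1.44 to 1.72 that spans more than 2-fold on each side. PPP1R15A had 132 coding reads summed over the pair and a coding log2 ratio of -0.50 (-1.02 to 0.02); its leader, on 8 and 7 reads, had -0.75 (-2.46 to 0.90). Leader against coding for PPP1R15A was -0.25 (-2.04 to 1.49).

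Of the 6 human transcripts, 4 had enough reads in both parts and 0 of them had a leader 2-fold different from its own coding region, against 4.19% of the 930. Also 0 of those 4 leaders were 2-fold different by themselves, against 4.1% of 1049 leaders, and 0 of 5 coding regions with enough reads, against 0.913% of 26492. The 4 include the 3 overlapping ATF4 transcripts, so they stand for ATF4 and PPP1R15B alone, and the shares for all transcripts are low as well. The 5 coding regions include the same 3, with identical coding counts, and stand for ATF4, PPP1R15A and PPP1R15B.

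**Figure D3:**
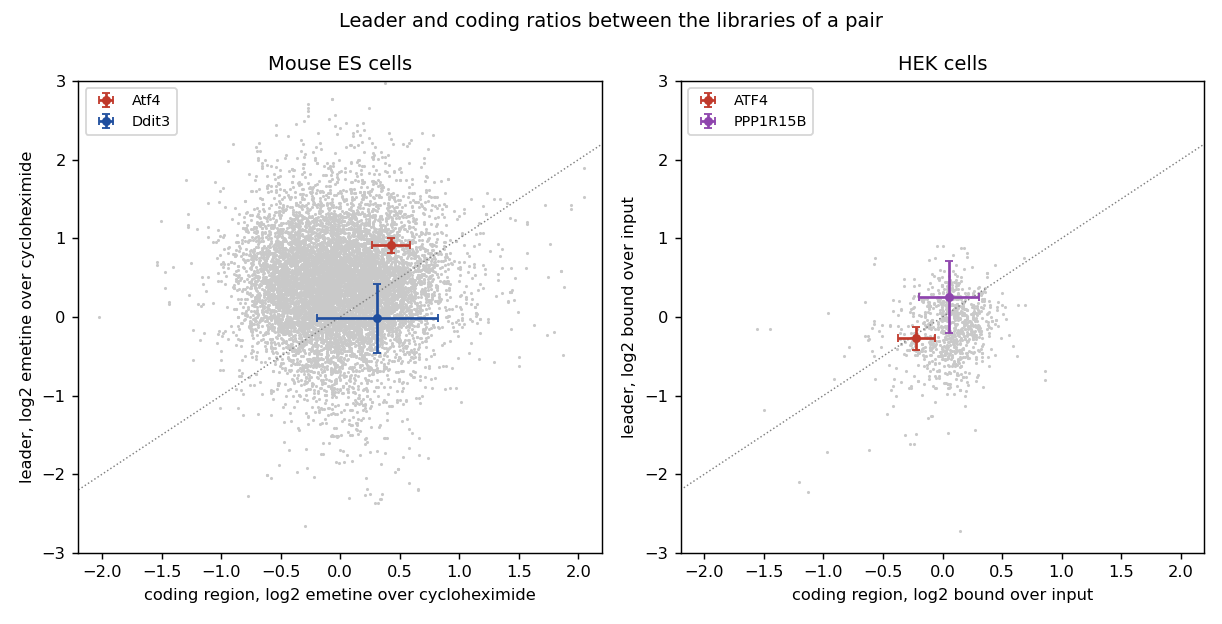
Log2 ratio of the leader (y axis) against that of the coding region (x axis), emetine over cycloheximide on the left and bound over input on the right, for transcripts with at least 100 summed reads in each part (grey) and the genes with their exact 95% counting intervals; the dotted line marks equal ratios, and 6 mouse and 5 human transcripts lie outside the axes. Atf4 lies above the line (leader 0.91, coding region 0.42), and ATF4 and PPP1R15B lie on it within their intervals.

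The remaining reads of these transcripts lay in the 3' trailer or in none of the 3 counted parts. Trailers of ATF4 and mouse Atf4 were nearly empty, and those of the other genes held few reads. Mouse Atf4 had 0 trailer reads with emetine, which allows a share of up to 0.115% of its reads at 3 counts, and 1 with cycloheximide. Human ATF4 had 1 in the bound library and 0 in the input, which allows up to 0.247% for ENST00000337304. Mouse Ddit3 had 8 of 170 reads with emetine (4.71%) and 0 of 225 with cycloheximide (up to 1.33%). PPP1R15B had 2 bound and 3 input trailer reads, DDIT3 had 1 of 51 bound (1.96%) and 2 of 45 input (4.44%), and PPP1R15A had 0 of 88 bound reads (up to 3.41%) and 0 of 62 input reads (up to 4.84%). Over all transcripts with 3 parts, trailers took 4.40% with emetine, 3.82% with cycloheximide, 9.08% in the bound library and 9.88% in the input.

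Reads in none of the parts went in opposite directions for the mouse genes. For Atf4 they were 131 of 2620 reads with emetine (5%, interval 4.20 to 5.91) and 370 of 2915 with cycloheximide (12.7%, 11.5 to 13.96), and these intervals do not overlap. For Ddit3 they were 34 of 170 with emetine (20%, 14.3 to 26.8) and 19 of 225 with cycloheximide (8.44%, 5.16 to 12.9). Over all mouse transcripts with 3 parts the share was 10.3% with emetine and 7.66% with cycloheximide, so Atf4 ran against the total. When all reads outside the leader replace coding reads as the reference, Atf4 had 2.70 leader reads per such read with emetine and 1.58 with cycloheximide, and its leader difference was 0.77 in place of 0.49. With the same reference Ddit3 had 0.70 with emetine and 1.23 with cycloheximide, and its leader difference was -0.81 in place of -0.32.

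In HEK cells ENST00000337304 had 172 of 2096 reads outside the parts in the bound library (8.21%, interval 7.07 to 9.46) and 66 of 1214 in the input (5.44%, 4.23 to 6.87). The odds of such a read in the bound library were 1.55 times those in the input (exact conditional interval 1.15 to 2.12). Over all human transcripts with 3 parts these shares were 5.32% and 5.68%. The position of these reads on the transcript was not analysed here.

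**Figure D4:**
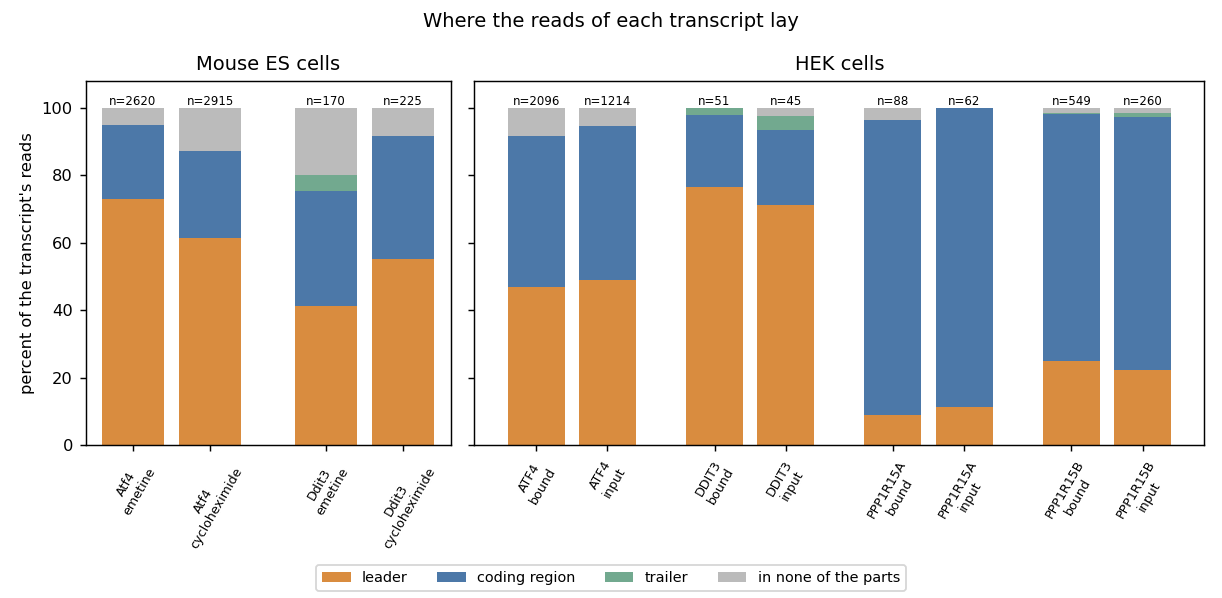
Percent of each transcript's reads (y axis) in the leader, coding region, trailer and none of these, per gene and library, with the number of reads above each bar and ATF4 as ENST00000337304. Leader reads make up 72.9% of Atf4 reads with emetine and 61.3% with cycloheximide, but 9.09% of PPP1R15A reads in the bound library and 11.3% in the input.

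The transcripts most like ATF4 were sought by distance between the log2 leader reads per coding read in the 2 libraries of a pair. Among 10497 mouse candidates the nearest to Atf4 was ENSMUST00000050555, at a distance of 0.013 log2 units, with 3.33 leader reads per coding read with emetine and 2.37 with cycloheximide. The next was ENSMUST00000141007 at 0.13, with 3.30 and 2.58, on only 44 and 69 coding reads. Among 926 human candidates the nearest to ENST00000337304 was ENST00000221975.2 at 0.092, with 1.08 in the bound library and 1.14 in the input; the next was ENST00000379254.1 at 0.13, with 1.03 and 0.986. The files do not pair these identifiers with gene names, and a likeness over 2 libraries is a description only.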

How the data were processed

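The authors deposited 1 table per library with raw read counts for each transcript, its coding region, 5' leader and 3' trailer, named so per the file headers. The submitters' processing notes list mm10 and hg19, CASAVA 1.8, TopHat2 2.0.7 and Bowtie2 2.0.6, without roles. The counting tool, annotation release and treatment of multi-mapped reads were not given in the sources used here; overlapping isoforms may share reads.

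A part was used where both libraries of a pair count it. Ratios are emetine over cycloheximide and bound over input, scaled to the median coding region with at least 100 summed reads (depth ratios 0.569 and 1.99), with a prior of 0.5 scaled reads; differences of 2-fold were counted. Counting intervals are exact, at 95% (Clopper-Pearson, or conditional for a ratio of ratios); 0 reads were given a ceiling of 3. Named transcripts are all 8 members and the 2 nearest to human ATF4 and mouse Atf4. The planned pathway list and cell type markers were not run, for want of gene names. Python 3.11.15, scipy 1.17.1 and, for TMM scaling as an alternative, edgeR 4.0.16 were used, and calculations were tested on simulated data. The members and lists were chosen with earlier results of these data known.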

Additional observations from a re-analysis of the deposited data

Results flagged for a closer look

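Reads in none of the counted parts drew attention because the ratios of leader to coding reads do not use them and their share was above that of the comparison library by more than counting error. This was so for mouse Ddit3, at 20% with emetine and 8.44% with cycloheximide. It was also so for the ATF4 transcripts, which share reads: ENST00000337304 had 8.21% in the bound library and 5.44% in the input, ENST00000396680 had 8.18% and 5.41%, and ENST00000404241 had 8.17% and 5.41%. Trailer reads of mouse Ddit3, outside the same ratios, numbered 8 with emetine and 0 with cycloheximide. For reads in none of the parts, mouse Atf4 differed in the other direction, at 5% with emetine and 12.7% with cycloheximide.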

How the results depend on the processing

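No paired analysis was possible because the groups compared share fewer than 2 replicate numbers. The position of each gene was recomputed as the percent of ranked transcripts with a lower ratio; a value was taken as moved when it left its own counting interval. With a minimum of 30 coding reads, Atf4 stood at 99.7% with emetine and 99.5% with cycloheximide, ATF4 (ENST00000337304) at 99.4% bound and 99.5% input, and PPP1R15B at 96.3% and 95.8%. With a minimum of 500, Atf4 stood at 99.98% and 99.94%, and ATF4 at 99.9% and 99.7%. Ddit3, DDIT3, PPP1R15A and PPP1R15B have fewer than 500 coding reads, so they are not among the transcripts ranked at that minimum. Set against those transcripts, the Ddit3 values lay at 99.4% and 99.8%. In the bound library DDIT3, on 11 coding reads, lay at 100% and PPP1R15B, on 402, at 99.2%. The input values were lower, at 99.9% for DDIT3 and 98.5% for PPP1R15B. PPP1R15A lay at 95.7% bound and 95.9% input. Among transcripts with at least 1 leader read, Atf4 stood at 99.8% and 99.6%, ATF4 at 99.5% and 99.6%, and PPP1R15B at 97.1% and 96.6%.

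Against all reads outside the leader, leader reads per read were 2.70 and 1.58 for Atf4. They fell below 1 for Ddit3 with emetine (0.7) and for ATF4 (ENST00000337304) in both HEK libraries, 0.880 bound and 0.964 input. The ATF4 input value stayed within its counting interval. The leader difference was 0.77 for Atf4 and -0.81 for Ddit3. Scaled to the summed counts of coding regions, leaders and trailers, log2 ratios of Atf4 were 1.11 for its leader and 0.63 for its coding region. Under that scaling mouse coding regions at least 2-fold different were 914 higher and 176 lower, in place of 418 and 341.

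Leaders at least 2-fold different from their own coding region, in either direction, numbered 2368 with emetine (2009 higher and 359 lower). They numbered 4313 with a minimum of 30 reads, 733 with 500, 5010 at 1.5-fold and 211 at 4-fold. In the HEK pair they numbered 39 (7 higher and 32 lower), and 549, 4, 178 and 2 under the same settings. As shares of the transcripts compared, these were 22.6%, 28.4%, 19.3%, 47.7% and 2.01% in the mouse pair. In the HEK pair the shares were 4.19%, 13.8%, 3.45%, 19.1% and 0.215%. Coding regions numbered 759 with emetine, and 1870, 157, 4469 and 25, or 2.65%, 5.9%, 0.691%, 15.6% and 0.0874% of those compared. In the HEK pair they numbered 242, and 1416, 10, 1523 and 32, or 0.913%, 3.61%, 0.108%, 5.75% and 0.121%. Other minimums change how many features are compared and other thresholds what is counted; the cause of the other shifts was not tested. Of 224 recomputed values, 169 stayed within their interval or within 1.5 times the count. This tally counts the 3 overlapping ATF4 transcripts separately, and wide intervals at low depth are easier to stay within. For DDIT3, PPP1R15A and mouse Ddit3 depth limits the comparisons of leader and coding reads.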
